A study of Mus musculus with 2 samples.

Results

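The genes described here are the core of Ras signalling, 8 mouse genes chosen by name: the GTPases Nras and Hras, the exchange factor Sos1, the adaptor Grb2, the phosphatase Ptpn11, the ubiquitin ligase Cbl, the GTPase-activating protein Nf1 and the kinase Braf. They are 8 of 43346 annotated genes and of 21474 protein-coding genes with a row in each library, and all 8 were found by their identifiers. The libraries were made from poly(A)-selected RNA of primary megakaryocyte-erythroid progenitors (MEP), marrow precursors of red cells and of the megakaryocytes from which platelets form. The cells came from adult female C57BL/6J mice aged 5 weeks, and the sort label gives CD34- with lineage antigens and CD16/32 named in the same phrase. There is 1 group of 2 biological replicates and no treated, mutant or other cell population, so the files hold levels and their spread but no contrast between conditions. Both libraries carry the same donor identifier with separate biosample records, and nothing states that they came from separate animals, so the spread between them may be technical. The deposited gene counts sum to 79539457 in replicate 1 and 65305321 in replicate 2.

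Ras proteins are small GTPases at the inner face of the plasma membrane that switch between an inactive GDP-bound and an active GTP-bound form. Downstream of receptors such as Kit, the erythropoietin receptor and the thrombopoietin receptor, Grb2 brings Sos1 to the membrane, Sos1 loads Ras with GTP, and GTP-bound Ras recruits RAF kinases, which start the MEK and ERK kinase cascade. Ptpn11 (the phosphatase SHP2) promotes this activation, Nf1 (neurofibromin) ends it by speeding GTP hydrolysis, and Cbl marks activated receptors for degradation. Mutations of these genes are known from juvenile myelomonocytic leukaemia and from developmental disorders such as Noonan syndrome and neurofibromatosis.

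Levels are given as TPM, a count of transcripts scaled to the same total in each library, which corrects for transcript length and so allows comparison between genes. Each library's TPM comes with the authors' interval, which covers the uncertainty of the estimate within that library and whose level is not stated in the file headers. All 8 genes reached a TPM of at least 1 in both libraries, as did 46.9% of all protein-coding genes. The order by mean TPM was Grb2, Hras, Ptpn11, Cbl, Nf1, Sos1, Braf and Nras, and the mean of Grb2 was 51.0-fold that of Nras. For 5 of the 7 neighbouring pairs in this order, both libraries gave the same order with separate intervals. Sos1 and Braf differed 1.16-fold with overlapping intervals in replicate 1, and Braf and Nras differed 1.09-fold with the reverse order in replicate 2, so these neighbours could not be ordered. The median of the 8 mean levels was 8.32 TPM, against 16.4 TPM for the 10061 protein-coding genes detected in both libraries, and 3 of the 8 lay above that median. In a bulk sample, fewer expressing cells and less RNA per cell cannot be told apart.

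**Figure D1:**
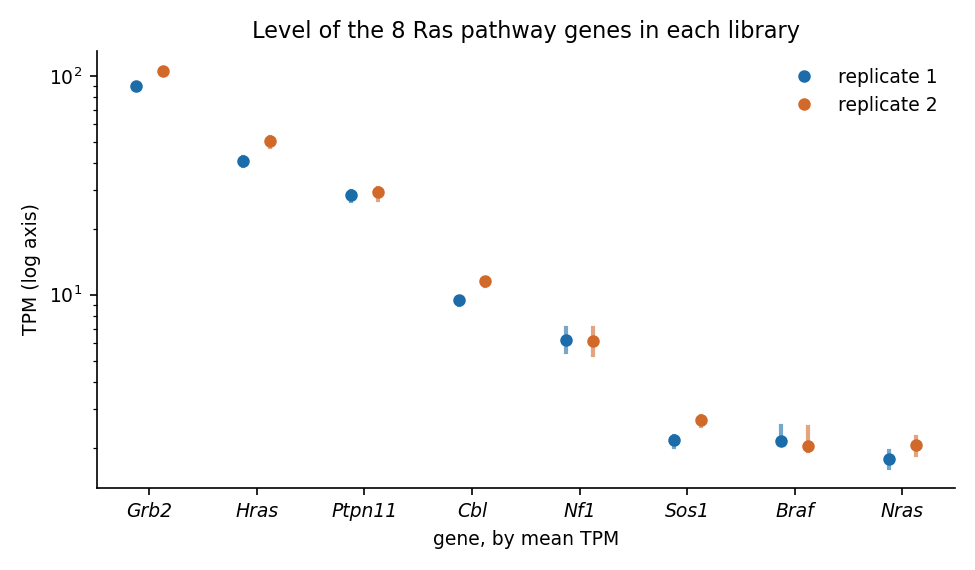
Level of each gene in replicate 1 (blue) and replicate 2 (orange) in TPM on a log axis, with the authors' interval as a vertical line and genes ordered by mean TPM. Grb2 stands highest at 89.8 and 105 TPM, and Sos1, Braf and Nras lie together between 1.77 and 2.68 TPM.

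Libraries made from sorted cells were compared with markers of the cell types that the sort could hold. All 7 erythroid markers, with a summed level of 615 TPM in replicate 1 and 753 TPM in replicate 2, and all 5 megakaryocyte markers, with 194 and 316 TPM, were detected. All 6 granulocyte and monocyte markers were detected at a far higher summed level, 31034 and 16992 TPM, and 3 of them differed more than 2-fold with replicate 1 higher, against 1.27% of detected protein-coding genes. The 5 stem and multipotent markers summed to 202 and 315 TPM, and Cd34, whose protein the sort label gives as absent, had 69.1 and 91.9 TPM. Flt3, in the same list, had 15.4 and 33.4 TPM and was 2.02-fold higher in replicate 2, a rule met in that direction by 0.537% of detected genes. The 4 B cell markers summed to 63.3 and 20.97 TPM, and 3 of them were more than 2-fold higher in replicate 1. Of 5 T and NK cell markers only Nkg7 reached 1 TPM, and the list summed to 35.4 and 18.6 TPM. The libraries labelled MEP thus hold markers of other marrow lineages at levels that differ between the replicates, and the part of these cells in the values below was not tested.

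Of the Ras GTPases, Hras was measured far above Nras. Nras (ENSMUSG00000027852.10), on the plus strand at chr3:103058285-103067914 (GRCm38, as all coordinates here), had 1.77 TPM in replicate 1 (interval 1.61 to 1.93) and 2.05 TPM in replicate 2 (1.86 to 2.24), a mean of 1.91 ± 0.198 (SD, n = 2). These values rest on 502 and 463 expected counts. Nras was the lowest of the 8, and 6.66% of the detected protein-coding genes had a lower mean level. Hras (ENSMUSG00000025499.13), on the minus strand at chr7:141189105-141194005, had 40.95 TPM (38.6 to 42.6) in replicate 1 and 50.6 TPM (47.4 to 52.5) in replicate 2, a mean of 45.8 ± 6.81 (SD, n = 2) from 2768 and 2459 expected counts. Its intervals did not overlap between the libraries. The log2 ratio of Nras to Hras was -4.57 ± 0.07 (SD, n = 2), so Hras was 23.8-fold higher per length, and both libraries gave this direction with separate intervals. The log2 ratio was -3.80 on TPM of coding transcripts alone and -2.43 on counts per 1000000 (CPM), which are not corrected for length, with the same sign.

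The Hras signal was spread over 7 transcripts, of which some carry an extra 82-base exon at chr7:141191955-141192036. The exon is annotated as coding, and its inclusion changes the coding length from 567 to 564 bases. Its 82 bases are not a whole number of codons, so the coding bases after it are read in another frame. The forms thus differ by more than these lengths show. It is shown in capitals between 20 bases of each neighbouring exon, in transcript orientation on the minus strand, because the transcripts with and without it make up most of the coding Hras signal. Sequences of transcripts here are from the GENCODE M21 transcripts.
Hras-207: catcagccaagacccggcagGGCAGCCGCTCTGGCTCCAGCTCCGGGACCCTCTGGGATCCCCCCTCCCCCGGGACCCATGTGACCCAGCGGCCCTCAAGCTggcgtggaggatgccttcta
Hras-202: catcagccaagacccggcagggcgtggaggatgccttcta

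The transcripts with a coding length of 564 bases, Hras-203 and Hras-207, held 16.0 TPM in replicate 1 and 23.7 TPM in replicate 2, which was 39.1% and 46.9% of the gene. Those with the coding length of 567 bases, Hras-201 and Hras-202, held 8.26 and 5.63 TPM, or 20.2% and 11.1%. By the M21 structures, the coding transcripts with the exon were therefore assigned the larger share in both libraries, 43.0% ± 5.55 against 15.6% ± 6.39 (SD, n = 2). The forms of 567 coding bases alone had a mean of 6.945 ± 1.86 TPM (SD, n = 2), against 1.91 TPM for Nras. Hras-203 alone had 12.45 TPM in replicate 1 (10.4 to 14.1) and 21.7 TPM in replicate 2 (19.1 to 23.6), and it was the most abundant Hras transcript in both. The deposited tables give Hras-203 a length of 845 bases, against 1073 bases in GENCODE M21, the later annotation used for structures, so the exact model to which its reads were assigned is not known. Hras-207 moved the other way, with 3.55 TPM in replicate 1 and 2.04 TPM in replicate 2, again with separate intervals.

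The remaining Hras signal fell on transcripts annotated as non-coding or as targets of nonsense-mediated decay. That pathway degrades mRNA with an early stop codon. Hras-205, a retained-intron transcript, had 8.49 and 9.79 TPM. The pair of decay targets, Hras-204 and Hras-206, together held 20.02% of Hras TPM in replicate 1 and 22.6% in replicate 2. All coding Hras transcripts together held 24.3 and 29.4 TPM, or 59.2% and 58.1% of the gene. The median coding share among detected protein-coding genes with several transcripts was 92.8% in replicate 1 and 90.8% in replicate 2, so Hras lay below the typical gene.

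The adaptor Grb2, which binds phosphorylated receptors through its SH2 domain and Sos proteins through its SH3 domains, had the highest level of the 8. Grb2 (ENSMUSG00000059923.9; chr11:115644045-115708597, minus strand) had 89.8 TPM (87.3 to 90.6) in replicate 1 and 105 TPM (101.4 to 105.6) in replicate 2, a mean of 97.4 ± 10.7 (SD, n = 2) from 14356 and 13271 expected counts. Its intervals were separate, with replicate 2 higher, and 85.1% of detected genes had a lower level. The partner that it recruits, Sos1 (ENSMUSG00000024241.6; chr17:80393751-80480453, minus strand), had 2.16 TPM (2.02 to 2.26) in replicate 1 and 2.68 TPM (2.50 to 2.79) in replicate 2, a mean of 2.42 ± 0.368 (SD, n = 2) from 1256 and 1245 expected counts. Grb2 thus exceeded Sos1 by 40.2-fold per length, a log2 ratio of 5.33 ± 0.06 (SD, n = 2).

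Coding transcripts of Grb2 differ by a 42-base segment of 14 codons at chr11:115645913-115645954, at the start of the C-terminal SH3 domain. It is shown in capitals with 20 flanking bases, in transcript orientation, because the transcripts with and without it shared nearly all Grb2 signal.
Grb2-201: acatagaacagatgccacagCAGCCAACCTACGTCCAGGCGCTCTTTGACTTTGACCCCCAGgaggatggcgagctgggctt
Grb2-202: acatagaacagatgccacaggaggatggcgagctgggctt

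Grb2-201, which holds the segment, had 69.0 TPM in replicate 1 and 77.6 TPM in replicate 2. Grb2-202, which lacks it, had 20.8 TPM (17.9 to 23.7) and 27.1 TPM (22.6 to 30.5). As shares of the gene, the shorter form held 23.1% and 25.9% (mean 24.5% ± 1.95, SD, n = 2). The models are 2709 and 2041 bases long, so they also differ outside the segment, and the files do not give reads per exon. Grb2-204, which lacks a 123-base exon at chr11:115649771-115649893, had 0 counts in both libraries. A count of 0 allows up to 3 counts, which is 0.0377 CPM in replicate 1 and 0.0459 CPM in replicate 2, for counting error alone.

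Against related genes, Grb2 was the higher adaptor and Sos1 the lower exchange factor. Grap, an adaptor of the same domain layout, had 3.33 and 3.08 TPM, so Grb2 was 30.2-fold higher. Grap2, a relative found mainly in haematopoietic cells, had 3.83 and 4.55 TPM, so Grb2 was 23.2-fold higher. Sos1, by contrast, lay below its paralog Sos2, which had 12.1 and 14.1 TPM, by 5.41-fold. On TPM of coding transcripts alone the log2 ratio of Sos1 to Sos2 shrank from -2.44 to -1.17 with the same sign, and on CPM without length correction it was -0.95, under 2-fold. Sos1 overlaps the opposite-strand gene Arhgef33, which was at 0.03 and 0.01 TPM.

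Nf1 was the member whose level depended most on which transcripts were counted. Nf1 (ENSMUSG00000020716.11; chr11:79339693-79581612, plus strand) had 6.23 TPM (5.44 to 7.04) in replicate 1 and 6.13 TPM (5.27 to 7.005) in replicate 2, a mean of 6.18 ± 0.0707 (SD, n = 2) from 894 and 1014 expected counts. Most of this came from Nf1-207, a 721-base transcript annotated as a processed transcript without a coding sequence. Nf1-207 has an exon of 367 bases at chr11:79339693-79340059, which overlaps the first exon of the full-length mRNA, and an exon of 354 bases at chr11:79344833-79345186, which overlaps no exon of that mRNA. Its splice junction is shown with 15 bases of each exon, the second exon in capitals, because this sequence tells the short transcript from the full-length one.
Nf1-207: cgcttcgacgagcagGTCTCACTTTGTAGC

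Nf1-207 had 4.99 TPM (4.19 to 5.77) in replicate 1 and 4.20 TPM (3.35 to 5.02) in replicate 2, which was 80.1% and 68.5% of Nf1 TPM. It held only 192 and 128 expected counts, 21.5% and 12.6% of the gene, since TPM divides counts by length and this transcript is short. The full-length Nf1-201, 11917 bases with 58 exons, had 0.74 TPM (0.646 to 0.804) and 1.17 TPM (1.03 to 1.26) but 577 and 729 expected counts. By counts, then, the full-length mRNA held 64.5% and 71.9% of Nf1. All coding Nf1 transcripts together held 0.90 TPM in replicate 1 and 1.65 TPM in replicate 2, a log2 difference of -0.87, whereas the whole-gene TPM hardly differed. On coding TPM alone Nf1 fell from the fifth to the lowest of the 8 genes. The deposited effective length of the gene, 2168 bases in replicate 1 and 3128 bases in replicate 2, moved with the same shift between transcripts.

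The complete coding models of Nf1 differ by a 63-base exon of 21 codons at chr11:79463233-79463295, which lies in the domain that acts on Ras and whose inclusion is known to lower that activity. It is shown in capitals with 20 flanking bases because all counts of the complete models fell on the form that includes it.
Nf1-201: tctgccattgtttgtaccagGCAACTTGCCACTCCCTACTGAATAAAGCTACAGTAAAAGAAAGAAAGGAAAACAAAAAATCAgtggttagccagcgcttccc
Nf1-202: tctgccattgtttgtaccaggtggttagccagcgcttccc

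Nf1-202, without the exon, had 0 counts in both libraries, while Nf1-201 had the 577 and 729 counts given above. The models are 9217 and 11917 bases long and differ outside the exon as well, so the zero does not measure exon skipping by itself. Nf1 is the only member of the 6 with several transcripts whose coding transcripts held under 50% of its TPM in both libraries (14.4% and 26.9%). Across detected protein-coding genes with several transcripts that share was 23.8%, so such a gene is common in these files. Its most abundant transcript was non-coding in both libraries, as was that of 23.5% of such genes. The opposite-strand genes Evi2b, Evi2a, Evi2 and Omg lie within Nf1. They are named here for their position, and the highest, Evi2b, had 22.7 and 23.3 TPM. How counting treated strand is not given, so reads of Nf1 and of these genes may not be separable.

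**Figure D2:**
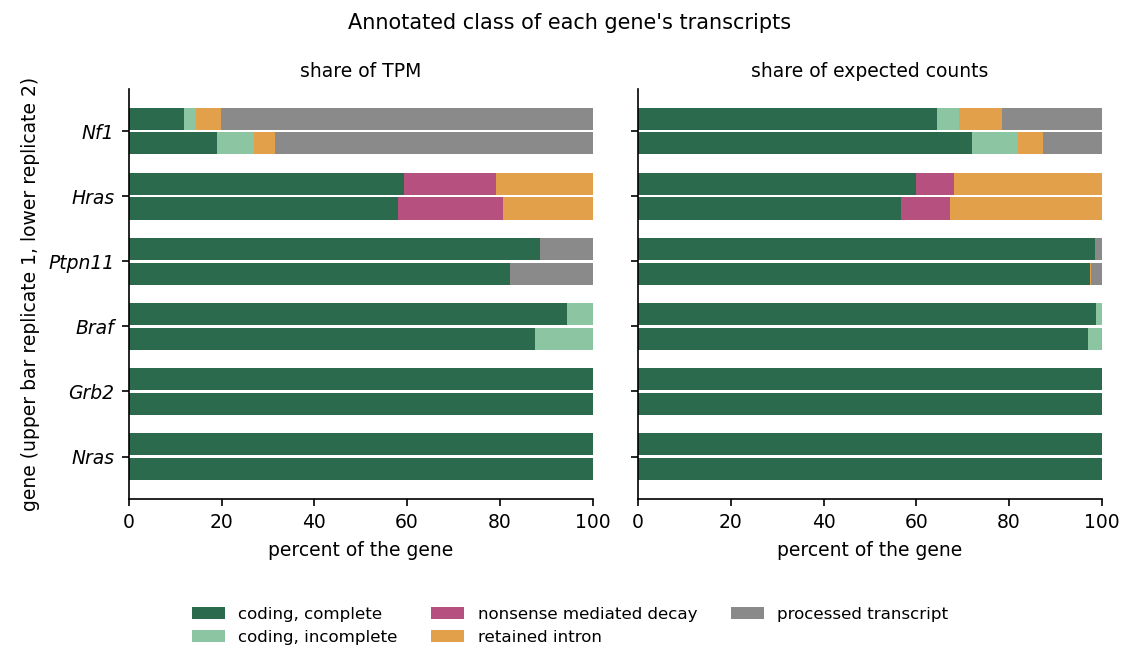
Share of each gene's TPM (left) and of its expected counts (right), in percent, by annotated transcript class, for the 6 members with several transcripts, with replicate 1 as the upper bar. For Nf1 the processed transcripts take 80.1% and 68.5% of TPM but 21.5% and 12.6% of counts, while Hras keeps similar coding shares on both scales.

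Against other GTPase-activating proteins, the rank of Nf1 changed with the same choice. Rasa1, the p120 Ras GTPase-activating protein, had 4.78 and 5.50 TPM, and the log2 ratio of Nf1 to Rasa1 was 0.27 ± 0.16 (SD, n = 2), with intervals not separate. On coding transcripts alone this ratio was -1.98, so the order turned. Rasa2 had 1.69 and 1.35 TPM, which put Nf1 at 4.07-fold higher, but on coding transcripts alone the log2 ratio fell from 2.03 to 0.07. Rasa3, which acts on Ras and Rap GTPases and is known from platelets, had 33.7 and 37.4 TPM and exceeded Nf1 by 5.73-fold, with a log2 ratio of -2.52 that became -4.80 on coding transcripts. On CPM, which does not correct for length, the ratio of Nf1 to Rasa1 was also negative, at -0.42. Nf1 lay below Rasa3 on each of these measures, its order against Rasa1 turned, and against Rasa2 it kept its sign but not the 2-fold difference on coding transcripts. Nras likewise lay below Nf1 by 3.23-fold on whole-gene TPM and above it on coding TPM, with log2 ratios of -1.69 and 0.64.

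Ptpn11, which encodes a phosphatase with tandem SH2 domains, was the third highest member and had overlapping intervals in the libraries. Ptpn11 (ENSMUSG00000043733.10; chr5:121130533-121191397, minus strand) had 28.7 TPM (26.7 to 29.9) in replicate 1 and 29.4 TPM (27.1 to 30.8) in replicate 2, a mean of 29.0 ± 0.502 (SD, n = 2) from 9317 and 7139 expected counts. Its complete coding transcripts differ by a 12-base segment of 4 codons at chr5:121144685-121144696, within the catalytic domain. It is shown in capitals with 20 flanking bases, in transcript orientation, because the 2 forms held most of the Ptpn11 signal.
Ptpn11-201: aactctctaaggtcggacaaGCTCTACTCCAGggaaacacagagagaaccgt
Ptpn11-202: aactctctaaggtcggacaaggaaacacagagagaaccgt

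Ptpn11-201, with the segment, had 12.8 TPM (10.9 to 14.8) in replicate 1 and 17.35 TPM (12.3 to 19.5) in replicate 2. Ptpn11-202, without it, had 12.6 TPM (10.2 to 14.1) and 6.76 TPM (4.25 to 11.4). The forms were thus level in replicate 1, at 44.6% and 44.0% of the gene, and apart in replicate 2, at 59.1% and 23.0%. For each form the intervals of the libraries overlapped, so the difference between replicates was not beyond these intervals. A short processed transcript, Ptpn11-204, took 11.4% and 17.8% of TPM but 1.38% and 2.30% of counts. Ptpn6, which encodes the related phosphatase SHP1, a brake on cytokine receptors in blood cells, had 82.1 and 66.2 TPM, 2.54-fold above Ptpn11.

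**Figure D3:**
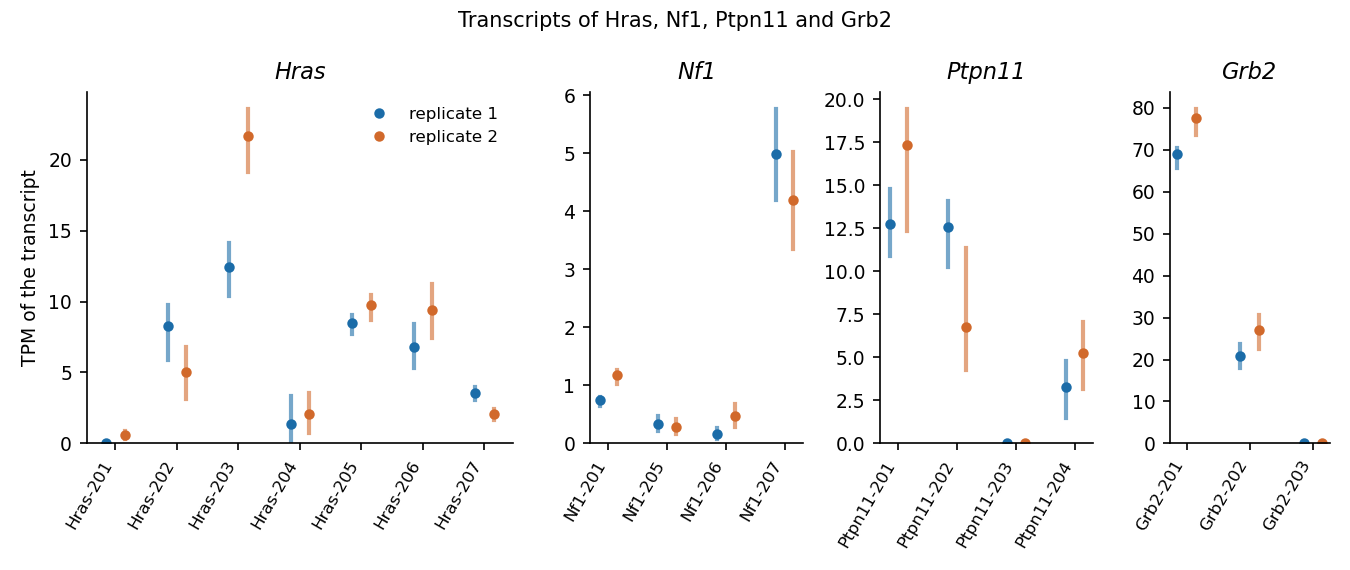
TPM of each transcript of Hras, Nf1, Ptpn11 and Grb2 in replicate 1 (blue) and replicate 2 (orange), with the authors' interval as a vertical line; transcripts at 0 in both libraries are left out and each panel has its own axis. Nf1-207 at 4.99 and 4.20 TPM stands above the full-length Nf1-201, Hras-203 is at 12.45 TPM in replicate 1 and 21.7 TPM in replicate 2, and the intervals of both Ptpn11 forms overlap between the libraries.

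Cbl, a ubiquitin ligase that attaches ubiquitin to activated receptor tyrosine kinases such as Kit, had an intermediate level. Cbl (ENSMUSG00000034342.8; chr9:44142976-44234049, minus strand) had 9.41 TPM (8.98 to 9.64) in replicate 1 and 11.5 TPM (10.9 to 11.8) in replicate 2, a mean of 10.5 ± 1.48 (SD, n = 2) from 3080 and 3006 expected counts. Its intervals were separate, with replicate 2 higher. Cblb, a paralog best known in lymphocytes, had 3.08 and 4.03 TPM, so Cbl was 2.95-fold higher. Cblc, the epithelial paralog, had 0 counts in both libraries. Cbl has a single annotated transcript in these tables, as has Sos1, so neither value depends on how reads were divided among transcripts.

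Braf encodes a RAF kinase, which GTP-bound Ras activates and which phosphorylates MEK. Braf (ENSMUSG00000002413.11; chr6:39603237-39725463, minus strand) had 2.15 TPM (2.07 to 2.51) in replicate 1 and 2.03 TPM (1.93 to 2.47) in replicate 2, a mean of 2.09 ± 0.0849 (SD, n = 2) from 1308 and 931 expected counts. Araf, a paralog of the same kinase family, had 39.0 and 52.6 TPM and was 21.6-fold higher than Braf per length, and 2.92-fold higher on CPM without length correction. Braf-201 held 94.5% and 87.7% of the gene. Its own intervals were separate, 1.90 to 2.12 TPM in replicate 1 and 1.64 to 1.87 TPM in replicate 2, while those of the whole gene overlapped. Braf-202, an incomplete model that lacks exons of 120 bases at chr6:39646725-39646844 and of 36 bases at chr6:39648821-39648856, had 0.12 and 0.25 TPM from 16.7 and 27.5 expected counts. Braf-201 is 9728 bases long with 2412 coding bases, so these shares say little of the exons themselves. The opposite-strand gene Ndufb2, named for its overlap with Braf, had 238 and 186 TPM, and with strand handling not given its reads and those of Braf may not be separable.

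Of the 14 pairs of genes compared, 13 differed more than 2-fold in mean with the same sign and separate intervals in both libraries, and the exception was Nf1 against Rasa1. The share of other gene pairs that meet this rule was not computed, so the count does not set these pairs apart. The first gene of the pair was the higher in 6 of the 13 and the lower in 7. Within families, Hras, Grb2 and Cbl exceeded the relatives they were paired with, and Nras, Sos1, Ptpn11 and Braf lay below theirs. Counts without length correction placed Ptpn11 and Ptpn6 level, where TPM placed Ptpn6 higher.

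**Figure D4:**
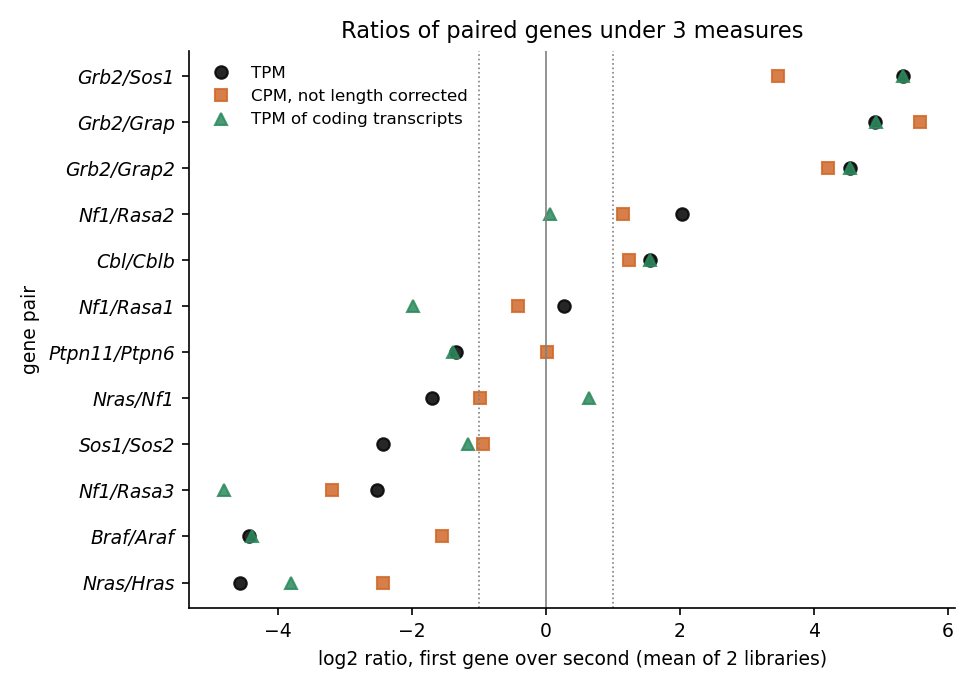
Mean log2 ratio of the first to the second gene of 12 pairs over 2 libraries, from TPM (circles), CPM that is not length corrected (squares) and TPM of coding transcripts alone (triangles), with dotted lines at 2-fold; the pair of Cbl with Cblc, which had 0 counts, is left out. The triangles of pairs with Nf1 lie far from the circles, at -1.98 against 0.27 for Nf1 with Rasa1, while those of Grb2, Cbl and Braf lie on them.

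Between the libraries none of the 8 genes differed more than 2-fold on CPM scaled by the trimmed mean of M values (TMM), a rule met with separate intervals by 1.37% of protein-coding genes at a mean of 5 TPM or more and by 1.81% of those detected in both libraries. None passed 1.5-fold on these whole-gene values either, against 8.28% and 9.86% of the same genes. The largest difference was that of Nf1, 1.33-fold with replicate 2 higher and a log2 difference (replicate 1 minus replicate 2) of -0.41. On whole-gene TPM the sign of the Nf1 difference turned, at 0.02. On TPM of coding transcripts alone Nf1 was at -0.87, past 1.5-fold, and the counts above were not repeated on that measure. Braf had the largest difference towards replicate 1, at 0.26 on CPM and 0.08 on TPM. Ptpn11 was at 0.16 on CPM and -0.04 on TPM, so its direction also turned with the scale. The other 5 members were higher in replicate 2 on both scales, with CPM differences from -0.06 for Hras to -0.21 for Sos1. Their TPM differences were larger, from -0.21 for Nras to -0.31 for Sos1, with Hras at -0.30. The intervals are on TPM, to which no TMM scaling was applied.

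The whole-gene TPM intervals of Hras, Cbl, Sos1 and Grb2 were separate between the libraries and those of Nras, Nf1, Ptpn11 and Braf overlapped. Separate intervals were found for 60.6% of detected protein-coding genes, so 4 of 8 is near the background. Replicate 2 was higher for 6 of 8 on TMM-scaled CPM, where 47.5% of detected genes were higher in it, and the median log2 difference was -0.11 for the members and 0.02 for the detected genes. Over all 13546 genes that passed the count filter the coefficient of variation between the libraries was 21.8%, from edgeR's common dispersion. The gene-wise values of the 8 ran from 14.2% for Grb2 to 20.4% for Nras. With 2 libraries edgeR draws these values towards those of other genes, so they do not rank the members by their own spread. The most abundant transcript was the same in both libraries for all 6 members with several transcripts, as for 87.6% of such genes overall. The summed granulocyte and monocyte markers were higher in replicate 1 and the erythroid, megakaryocyte and stem markers in replicate 2, and the part of this in the members' differences was not tested.

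**Figure D5:**
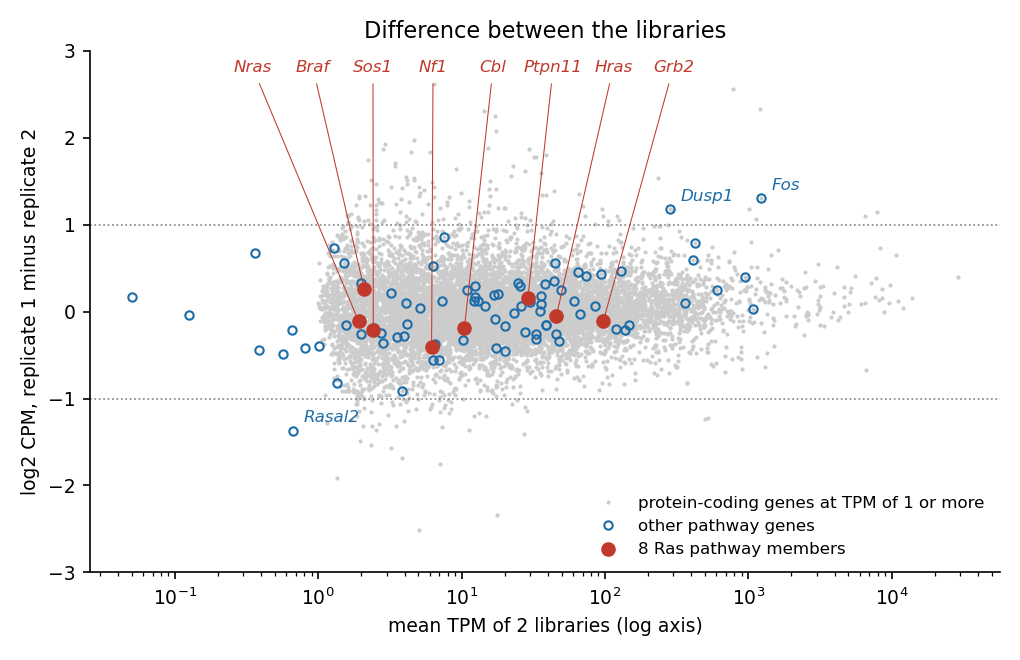
Log2 difference in TMM-scaled CPM, replicate 1 minus replicate 2, against mean TPM on a log axis for 10061 detected protein-coding genes (grey), the other pathway genes that passed the count filter (open circles) and the 8 members (red), with dotted lines at 2-fold. The members lie between -0.41 for Nf1 and 0.26 for Braf, and Dusp1, Fos and Rasal2 are the pathway genes past 2-fold.

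The rest of the pathway was measured through 11 lists with 84 measured genes, of which 71 were detected in both libraries and 3 differed more than 2-fold with separate intervals (2 higher in replicate 1 and 1 in replicate 2). Of all detected protein-coding genes 1.27% met this rule towards replicate 1 and 0.537% towards replicate 2. These shares cover an unlike set, as the 84 genes were not limited to detected ones. Rasal2, the gene higher in replicate 2, had 0.32 TPM in replicate 1 and lies outside the detected genes. Among the 11 adaptors 10 were detected, with a median of 4.19 TPM. Shc1, which links receptors to Grb2, had 123 and 152 TPM, Crk had 90.9 and 104 TPM, and Dok1, an inhibitory docking protein, had 84.7 and 86.5 TPM. Grb2 thus lay among the most abundant adaptors, near Crk and Dok1. Frs2, the docking protein of fibroblast growth factor receptors, had 2.40 and 3.04 TPM and Gab3 had 0.34 and 0.43 TPM.

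Of the 7 exchange factors beside Sos1, 3 were detected and the list's median was 0.36 TPM. Rasgrp2, a calcium-regulated exchange factor that acts on Rap1 in platelets, had 620 and 585 TPM, far above every other exchange factor measured. Rasgrp4, known from mast cells and myeloid cells, had 9.40 and 5.69 TPM. Rasgrp3 and the neuronal Rasgrf1 stayed at or below 0.07 TPM. Sos1, at a mean of 2.42 TPM, was therefore neither the highest nor an undetected member of its class.

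Among 6 other Ras-like GTPases 5 were detected, with a median of 8.15 TPM. Rap1b, the main Rap GTPase of platelets, had 28.4 and 37.9 TPM, Rit1 had 13.6 and 15.4 TPM and Rap1a had 12.3 and 12.2 TPM. The lowest were Rras2 with 1.75 and 2.25 TPM and Mras with 1.64 and 0.93 TPM. Hras, at 45.8 TPM on the whole gene, had a higher mean than each of these 6. Its coding transcripts alone had a mean of 26.8 TPM, below the whole-gene mean of Rap1b, 33.1 TPM. The coding level of Rap1b is not given here. On expected counts, which are not corrected for length, Rap1b had 3536 and 3764 against 2768 and 2459 for Hras. Nras, at 1.91 TPM, lay near Rras2.

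Of 9 GTPase-activating proteins 7 were detected, with a median of 17.2 TPM. Rasal3, which is expressed in blood cells, had 64.4 and 70.2 TPM and Rasa4 had 51.8 and 47.6 TPM. Rasal2 had 0.32 and 1.02 TPM and was 2.59-fold higher in replicate 2, and Rasal1 had 0.73 and 1.28 TPM. Nf1 lay below the median of this list on whole-gene TPM.

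All 9 genes of lipid modification and trafficking, processes that govern how Ras attaches to membranes and leaves them, were detected, with a median of 17.8 TPM. Lypla1, a thioesterase that removes palmitate, had 479 and 341 TPM, Pde6d, a carrier of prenylated proteins, had 51.9 and 37.9 TPM, and Rce1, the protease that trims the prenylated end, had 36.8 and 34.8 TPM. The lowest were Zdhhc9, a palmitoyltransferase subunit, with 7.31 and 5.41 TPM, and Pggt1b, a subunit of an enzyme that attaches prenyl groups, with 1.42 and 1.69 TPM.

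In the kinase cascade 7 of 8 genes were detected, with a median of 37.2 TPM. Map2k2, which encodes the kinase MEK2, had 362 and 363 TPM, and Mapk3, which encodes ERK1, had 146 and 113 TPM. Ksr2, a scaffold, had 0.42 and 0.72 TPM. Braf, at a mean of 2.09 TPM, lay below the median of this list.

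All 4 cascade regulators were detected, with Pebp1, an inhibitor of RAF, at 1064 and 1097 TPM, Lztr1, an adaptor for Ras degradation, at 40.1 and 36.8 TPM, Lamtor3 at 13.3 and 11.6 TPM and Shoc2, which helps to activate RAF, at 2.15 and 1.84 TPM. The mean of Shoc2 lay near that of Braf.

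Feedback inhibitors and genes that ERK induces were measured as well. Of 12 measured inhibitors 11 were detected, with a median of 22.5 TPM. Dusp1, a phosphatase of MAP kinases, had 389 and 184 TPM and was 2.26-fold higher in replicate 1. Dusp2 had 105 and 83.5 TPM, Spred2 had 61.2 and 60.2 TPM, Spred1 had 2.20 and 2.67 TPM and Spry4 had 0.94 and 1.78 TPM. Of 9 ERK target genes 8 were detected, with a median of 119 TPM. Fos had 1741 and 733 TPM and was 2.47-fold higher in replicate 1, Ier2 had 1053 and 861 TPM and Egr1 had 530.0 and 325 TPM. Fos, Dusp1, Ier2 and Egr1 are immediate early genes, which are transcribed within minutes of a stimulus. Ccnd1, the gene of cyclin D1, had 5.49 and 7.63 TPM and Etv4 had 0.71 and 0.61 TPM.

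Of the 6 Cbl relatives and partners 4 were detected. Ubash3a, a suppressor of receptor signalling in lymphoid cells, had 48.8 and 38.9 TPM, Sh3kbp1, which links Cbl to endocytosis, had 11.4 and 10.4 TPM and Ubash3b had 6.70 and 8.02 TPM. Cd2ap, an adaptor related to Sh3kbp1, had 0.66 and 0.95 TPM. All 3 phosphatases beside Ptpn11 were detected, Ptpn1 at 72.9 and 57.8 TPM and Ptpn2 at 8.65 and 11.9 TPM in addition to Ptpn6.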

How the data were processed

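Gene and transcript tables of both libraries were used. The authors deposited, per the file headers, an expected count, a TPM and an FPKM for genes and transcripts and, for transcripts, the percent of the gene. The deposited TPM intervals give lower and upper bounds of this signal with no stated level. Per the deposited text, reads were mapped to mm10 with GENCODE M4; strand handling, aligner and quantifier were not given in the sources used here, and the columns bear the names RSEM uses. The 26345 rows that name no gene held 1 count in replicate 1 and 0 in replicate 2 and were left out.

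Symbols, gene types and structures came from GENCODE M21 (GRCm38) by identifier without version, which matched 42462 of 43346 gene identifiers (884 did not match) and 101510 of 103639 transcripts. Of the members' 33 transcripts 28 have the same length in both annotations and 5 do not.

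Expected counts were rounded for edgeR 4.0.16 (R 4.3.3; TMM factors 0.98 and 1.02, filterByExpr, intercept only). Log2 differences used TMM-scaled CPM with a prior count of 2, and pair ratios TPM plus 0.01. A pair was called where the sign was the same in both libraries, the mean ratio passed 2-fold and intervals were separate in each. With 1 group of 2 libraries no test was possible and no p-value is given. Python 3.11.15, numpy 2.4.6, pandas 2.3.3 and matplotlib 3.10.9 were used for the rest, and DESeq2 1.42.0 for alternative scaling. The edgeR step, which gave the scaling, dispersion and log2 differences, was tested on simulated counts.

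The members, pairs and lists were chosen with earlier results of these data known. Genes named were the members, both genes of each pair, the 3 highest and 2 lowest of each list by mean TPM and those past 2-fold; genes overlapping a member are named for position. Of 85 pathway genes 1 had no matched row. The values of 1 further gene that the rule names, and of its pair, are not reported here but stay in the counts.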

Additional observations from a re-analysis of the deposited data

How the results depend on the processing

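Of 31 alternative values of the main counts 26 stayed within 1.5 times. Some of these were fixed by the main result, such as detection at 0.5 TPM or in 1 library alone. The members apart without the count filter were fixed too, as all 8 passed it. FPKM is proportional to TPM within a library, so its counts could hardly move. The 26 are thus not a tally of independent checks. The members detected fell from 8 to 5 at 5 TPM or more and to 3 at 10 TPM or more. On expected counts in place of TPM, chosen after seeing the data, 0 members had under 50% in coding transcripts in place of 1. The pathway genes more than 2-fold apart rose from 3 to 5 on TPM and to 9 of 84 at 1.5-fold. Of detected protein-coding genes 9.86% passed 1.5-fold with separate intervals, and the share on TPM was not computed. Called pairs numbered 13 with FPKM, the posterior mean, a pseudocount of 1 and each library alone, and 10 with CPM, all with the whole-gene TPM intervals. With coding transcripts alone, chosen after seeing the data, 12 pairs passed. That setting had no interval condition, so its 12 rests on a looser rule. Ptpn11 against Ptpn6 turned to a log2 ratio of 0.0089 on CPM, where Nf1 against Rasa1 was -0.42. On coding transcripts Nf1 against Rasa1 turned to -1.98 and so passed 2-fold, while Nras against Nf1 turned to 0.64 and Nf1 against Rasa2 fell to 0.07, both under 2-fold. Sos1 against Sos2 (-0.95) and Nras against Nf1 (-0.98) were under 2-fold on CPM. The coefficient of variation was 21.8% with the count filter, 28.7% without and 19.0% with DESeq2. Leaving out replicate 1 or 2 left 8 members detected, which detection in both libraries had already fixed, and 13 pairs called. The sign and interval conditions of these pairs were already met in each library, so only their 2-fold size could fail. No paired analysis was possible because there is 1 group. With 2 libraries, differences between them have no replicate check.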
